A study of Mus musculus with 6 samples.

Results

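The hearts of wild-type mice that had received angiotensin II (Ang II) for 28 days were compared with control hearts, gene by gene, by RNA sequencing. An osmotic minipump delivered Ang II under the skin, at a rate of 1000 ng per kg each minute. The comparison used 4 of the 6 libraries of the series, 2 from the control group, listed at 0 days of infusion, and 2 from the 28 day group. The other 2 libraries came from mice infused for 7 days at the same dose and are used where they show how 28 days differed. All 3 groups were wild-type hearts. The labels state neither what the control mice received nor the age, strain or sex of the mice, nor the time of day at which hearts were taken. Nor do they tie each library to its own mouse, and p-values therefore cover only how far these samples spread, some of which may be technical. Each gene had 1 RPKM value per library (reads scaled to transcript length and to the mapped reads of the library). Of 22556 genes in the table, the 10949 with a mean RPKM of at least 1 over the 4 libraries were tested and 11607 were not. The mean of the gene just inside this limit was 1.00022 RPKM and that of the gene just outside 0.999993 RPKM.

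Ang II is the effector peptide of the renin-angiotensin system. Through its type 1 receptor it narrows vessels, raises blood pressure and acts on cardiomyocytes, fibroblasts and vascular cells. A heart that pumps against a raised pressure enlarges its muscle cells. It returns to genes of the fetal heart, such as those for natriuretic peptides, skeletal alpha-actin and beta-myosin heavy chain, and lays down collagen between the cells. Prolonged infusion is a common mouse model of hypertensive heart disease.

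Relative depth, taken from low RPKM values against control replicate 1, was 0.89 to 1.05 in the 4 libraries and 1.14 to 1.17 at 7 days. The log2 ratio between the 2 replicates had an SD over genes of 0.313 for the controls and 0.401 at 28 days. Ventricular cardiomyocyte markers summed to between 58690 and 69570 RPKM in the 4 libraries, so the labelled tissue matched its markers. Markers of atrial muscle did not divide by group: their sum was 340 and 3064 RPKM in the control libraries and 2455 and 3456 RPKM at 28 days. Nppa is 1 of these markers, at 215 and 1605 RPKM in the controls and at 1648 and 3040 RPKM at 28 days. Xist was at or below 0.0154 RPKM in all 4, and the Y-linked Ddx3y lay between 12.1 and 15.4 RPKM. Adipocyte markers without Fabp4, which endothelium also expresses, summed to 26.4 and 29.85 RPKM in the controls and to 95.9 and 37.9 RPKM at 28 days, while Fabp4 was at 1144 and 994 RPKM and then at 991 and 961 RPKM. In 28 day replicate 1 Cfd, the adipocyte protease adipsin, reached 40.0 RPKM against 2.34 RPKM in 28 day replicate 2 and 2.37 and 5.12 RPKM in the controls. These are whole-heart RNA pools, in which fewer cells of a type and less RNA per cell cannot be told apart.

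After 28 days 317 genes were higher than in the controls, or 2.9% of those tested, and 178 were lower, or 1.63% (limma, Benjamini-Hochberg adjusted p under 0.05). Changes above 2-fold made up 97 of the higher and 79 of the lower genes, and changes above 4-fold 22 and 7. The median log2 change over all tested genes was 0.01. The genes that rose most encoded natriuretic peptide, actin, ankyrin-repeat and stress proteins of heart muscle together with S100 proteins of myeloid cells. Those that fell most were interferon-inducible genes, clock output genes and Ucp3. At an unadjusted p under 0.05, 1408 genes were higher and 1036 lower. The count rested on the controls, of which there were 2. It fell to 23 higher and 13 lower genes without control replicate 1 and to 55 and 42 without control replicate 2, and it was 185 and 78 or 184 and 80 without a 7 day library, which entered the estimate of the spread. Of 98 called genes among the 130 selected for description, 83 did not pass without control replicate 1, 66 without control replicate 2, 19 without 28 day replicate 1 and 22 without 28 day replicate 2. The 14 that passed with any library left out were Nppb, Acta1, Ankrd23, Tnfrsf12a, Atf3, Hspb1, Hspb7, Tuba8, Cilp, Thbs4, Ccl8, Arntl, Slc41a3 and Syt12, of which Thbs4, Arntl and Syt12 met the level limit through the 28 day libraries alone.

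**Figure D1:**
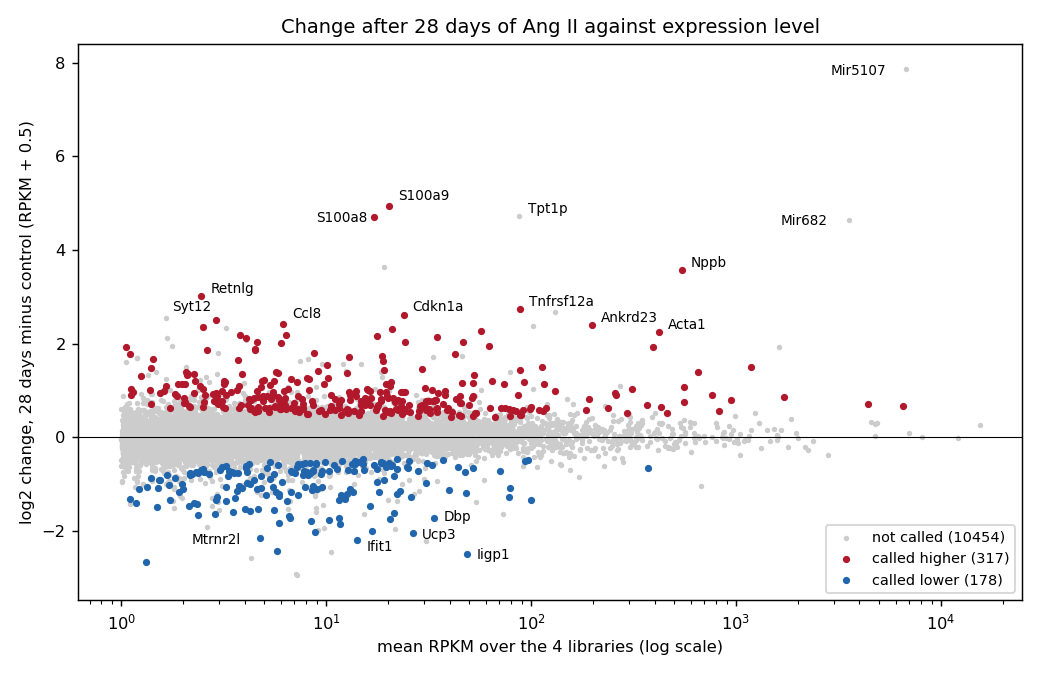
Log2 change from control to 28 days (vertical axis, on RPKM + 0.5) against the mean RPKM of the 4 libraries (horizontal log axis) for 10949 genes, with 317 called higher in red, 178 called lower in blue and the rest in grey. Nppb and Acta1 stand out among genes of high level, and Mir5107, far above 0 but grey, was at 0 RPKM in 3 of the 4 libraries.

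Genes of the natriuretic, hypertrophic and fetal cardiomyocyte list had the highest median of the pathway lists. Of 18 listed genes 16 were tested, 10 rose (62.5% against 2.9% of all genes) and 0 fell, with a median log2 change of 1.71. Nppb, which encodes brain natriuretic peptide, a hormone released by stretched ventricle, was at 68.5 and 99.2 RPKM in the controls and at 1187 and 816 RPKM after 28 days. Both 28 day libraries lay far above both controls, a log2 change of 3.57 (SE 0.28, limma adjusted p = 0.00261). Acta1, the actin of skeletal muscle and of the fetal heart, was at 125 and 170 RPKM in the controls and at 666 and 720 RPKM at 28 days, and rose by 2.24 (SE 0.15, adjusted p = 0.00246). Ankrd23, an ankyrin-repeat protein tethered to titin, rose from 53.6 and 73.2 RPKM to 375 and 294 RPKM, and its relative Ankrd1 rose from 617 and 628 RPKM to 1790 and 1717 RPKM. Rcan1, a feedback inhibitor of calcineurin and a target of its signalling, rose from 18.3 and 18.96 RPKM to 123 and 67.8 RPKM. In each of these 5 genes both 28 day libraries were above both controls, as in 3156 of all 10949 genes.

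Myh7, the slow beta-myosin heavy chain, was at 173 and 141 RPKM in the controls and at 421 and 834 RPKM at 28 days, a log2 change of 1.92 (SE 0.29, adjusted p = 0.0197). Myh6, the fast alpha chain of the adult mouse ventricle, stayed at a high level, with 4163 and 4401 RPKM in the controls and 5707 and 4702 RPKM at 28 days (log2 change 0.28, adjusted p = 0.262). Myh7 accordingly made up 4.0% and 3.1% of the summed RPKM of both chains in the controls and 6.88% and 15.1% at 28 days. Acta1 made up 2.38% and 3.24% of the RPKM of Acta1, Actc1 and Acta2 in the controls and 7.28% and 8.49% at 28 days. In both sets of isoforms the share was above both controls in both 28 day libraries. Nppa, encoding atrial natriuretic peptide, did not pass the test: it was at 215 and 1605 RPKM in the controls and at 1648 and 3040 RPKM at 28 days (log2 change 1.93, adjusted p = 0.214). Its low value fell in control replicate 1, the library with the lowest sum of atrial markers. Nppa is itself 1 of these markers, and its 215 RPKM is part of that sum of 340 RPKM, so the 2 values are not independent. With that library as the only control, Nppa passed with a log2 change of 3.38 (adjusted p = 0.0232), and with control replicate 2 as the only control the change was 0.48 (adjusted p = 0.634). The other atrial markers Myl7, at 52.5 and 646 RPKM in the controls and 341 and 182 RPKM at 28 days, and Sln, at 20.2 and 293 RPKM and then 163 and 55.1 RPKM, overlapped between the groups, and the part of atrial tissue in the level of Nppa was not tested. Without control replicate 1, 4 genes of the hypertrophic list passed, and without any other single library 7 to 12.

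Of the 15 hypertrophic genes that had a promoter window in the RefSeq table (250 bases before to 50 after the start, build GRCm38.p6), 6 held the 6-letter MCAT motif CATTCC, read on either strand, a site bound by TEAD factors in muscle genes. The motif was present in 14.6% of the windows of tested genes. All 6 were among the 9 genes with a window that rose. The stretch of the Acta1 promoter at chr8:123894804-123894851 on the minus strand is shown because this gene rose in every fit; capitals mark the motif, and a match is no evidence of binding.
Acta1: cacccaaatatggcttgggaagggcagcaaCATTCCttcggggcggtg

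**Figure D2:**
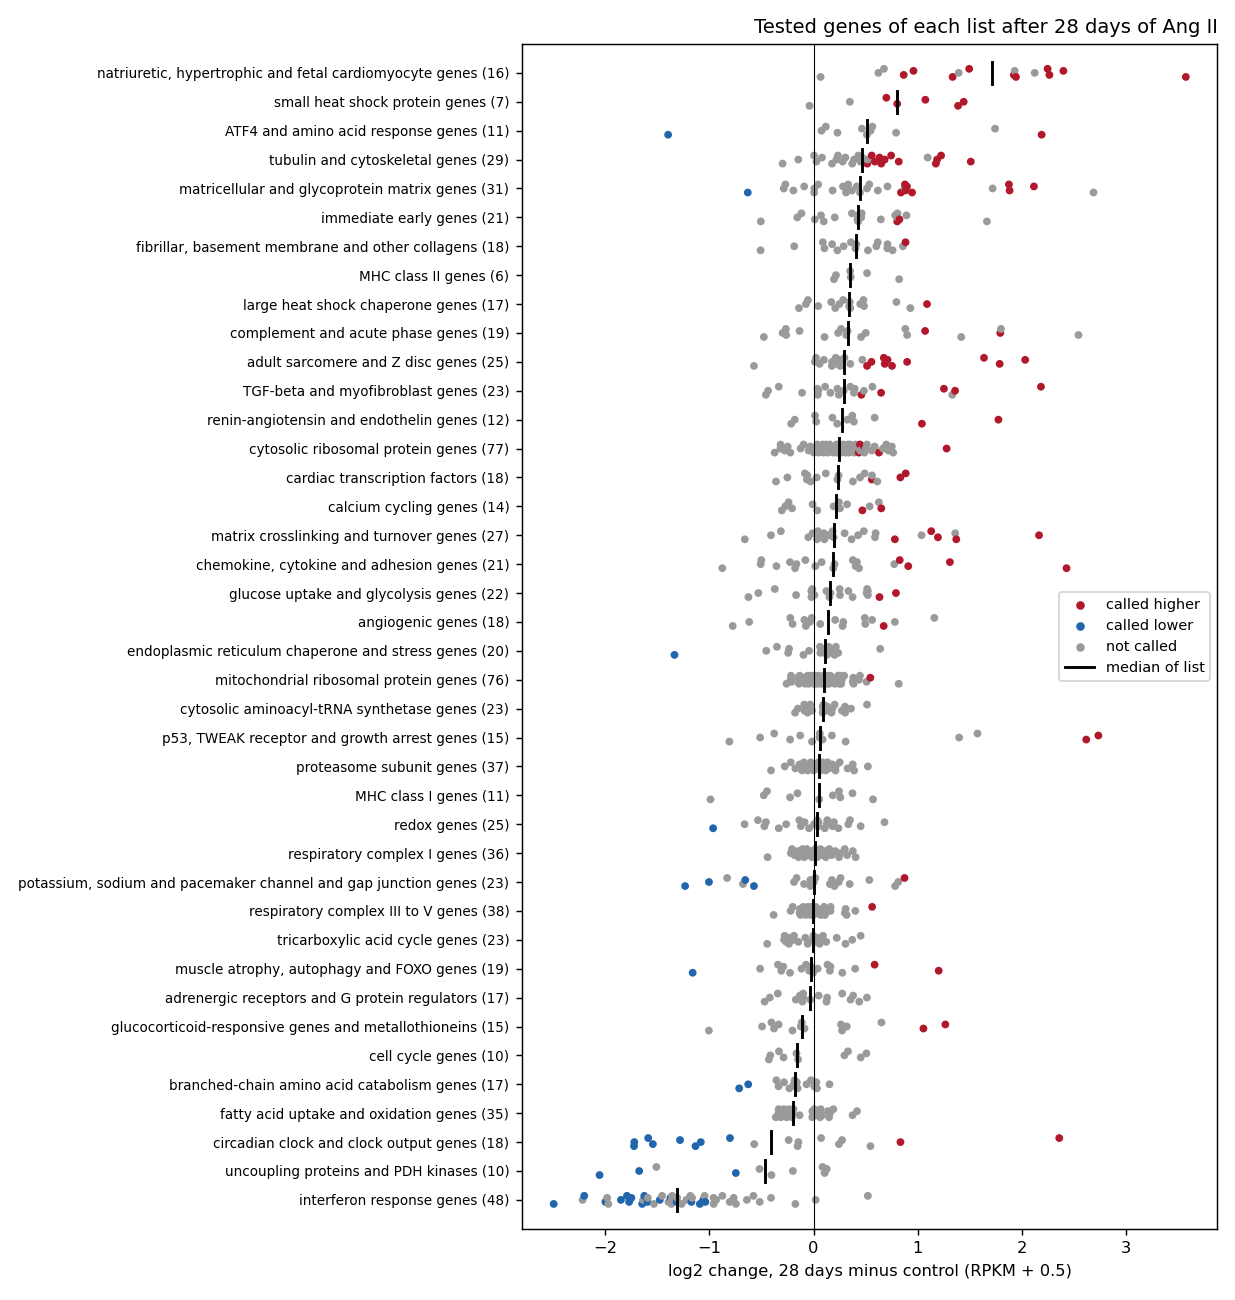
Log2 change at 28 days against control (horizontal axis, RPKM + 0.5) for the tested genes of each pathway list, whose number stands in brackets, with called genes in red or blue and the list median as a black bar. Hypertrophic genes have the highest median, 1.71, and interferon response genes the lowest, -1.31.

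Genes of the contractile apparatus and its Z disc, the plate that anchors the thin filaments, rose in part. Of 25 adult sarcomere and Z disc genes, all tested, 10 rose (40.0% against 2.9% of all genes) and 0 fell, and the median was 0.30. The largest changes were in Z disc proteins. Synpo2l, an actin-binding protein of the Z disc, was at 16.9 and 16.7 RPKM in the controls and at 108 and 45.5 RPKM at 28 days (log2 change 2.03, adjusted p = 0.030). Flnc, filamin C, which crosslinks actin, was at 17.2 and 19.1 RPKM and then 88.7 and 45.7 RPKM. Myot, myotilin, rose from 8.41 and 9.36 RPKM to 31.9 and 25.7 RPKM. For Synpo2l and Flnc the first 28 day replicate was the higher one by a wide margin, while Myot was even. Des, the intermediate filament desmin, rose from 525 and 537 RPKM to 956 and 1023 RPKM (log2 change 0.90, adjusted p = 0.00709). Actn2, Mybpc3, Tnnc1, Ldb3, Pdlim5 and Actc1, which encode thick and thin filament or Z disc proteins, rose by 0.51 to 0.75. Ttn, the giant spring protein titin, was at 39.86 and 41.5 RPKM in the controls and at 46.95 and 38.2 RPKM at 28 days and did not pass (log2 change 0.06). The count of sarcomere genes that rose was 0 without control replicate 1, 1 without control replicate 2 and 6 without 28 day replicate 1.

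Of 29 tested genes for tubulins and the cortical cytoskeleton 12 rose, or 41.4% against 2.9% of all genes. Of the rest 0 fell and 17 did not pass, and the list had a median of 0.47. Microtubules of the cardiomyocyte are polymers of alpha and beta tubulin. Tuba8, an alpha tubulin of muscle and testis, was at 53.9 and 63.4 RPKM in the controls, at 77.7 and 68.6 RPKM at 7 days and at 178 and 157 RPKM at 28 days. It rose by 1.51 against control (SE 0.13, adjusted p = 0.00335) and was also higher at 28 than at 7 days, by 1.19 (adjusted p = 0.00743). Its share of the summed RPKM of 5 alpha tubulins was 15.5% and 16.0% in the controls, 14.1% and 15.9% at 7 days and 21.6% and 23.4% at 28 days. The beta tubulins Tubb2a, Tubb2b and Tubb2c rose by 1.17 to 1.22. Tubb2c, listed today as Tubb4b, went from 53.2 and 59.7 RPKM to 124 and 133 RPKM. Tubb5, Tubb6, Tuba1b and Tuba1c rose by 0.56 to 0.74, and the cytoplasmic actins Actb and Actg1 by 0.59 and 0.63. Tubulin genes have near-identical copies, and how reads shared between copies were counted is not given in the sources used here. Without control replicate 1 only 1 gene of the list passed, and without control replicate 2, 4.

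Small heat shock proteins are chaperones that bind unfolded protein without ATP and protect desmin and titin in muscle. At 28 days 5 of 7 genes were higher, or 71.4% against 2.9% of all genes, with a median of 0.80. Hspb1 was at 46.4 and 47.9 RPKM in the controls and at 133 and 125 RPKM at 28 days, a log2 change of 1.44 (SE 0.09, adjusted p = 0.00246). Its level at 7 days, 85.4 and 91.1 RPKM, lay between, and the increase from 7 to 28 days passed as well (log2 change 0.54, adjusted p = 0.0295). Hspb7, a cardiac chaperone of the thin filament, rose from 359 and 364 RPKM to 1000 and 895 RPKM. Hspb6 rose from 365 and 352 RPKM to 759 and 751 RPKM, Cryab, alpha-B crystallin, from 647 and 735 RPKM to 1126 and 1287 RPKM, and Hspb3 by 0.70. Hspb8 (log2 change 0.35) and Hspb2 (-0.04) did not pass. Of 17 ATP-driven or large chaperones 1 rose, or 5.88% against 2.9% of all genes, and 0 fell. It was Hspa1l, which went from 2.04 and 2.38 RPKM to 5.53 and 4.98 RPKM. The count of small heat shock genes that rose was 3 without replicate 2 of either group, and 2 when control replicate 1 was left out.

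The core of the heat shock element, GAANNTTC, was found in the promoter windows of 4 of 5 small and 7 of 13 large heat shock genes, against 7.18% of the windows of tested genes. It was in 3 of 4 small ones that rose and in the 1 that did not pass, and in 0 of 1 large ones that rose and 7 of 12 that did not pass. The motif is its own reverse complement, so both strands read alike. The Hspb1 stretch at chr5:135887772-135887841, plus strand of GRCm38.p6, is shown because the gene rose in every fit and holds 2 matches, in capitals.
Hspb1: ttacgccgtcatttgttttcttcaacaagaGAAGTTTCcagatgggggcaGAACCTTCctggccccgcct

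Few genes of growth arrest and stress signalling outside the chaperones passed the test. Tnfrsf12a, the receptor for the cytokine TWEAK, was at 20.4 and 23.995 RPKM in the controls and at 187 and 120 RPKM at 28 days, a log2 change of 2.73 (SE 0.20, adjusted p = 0.00261). Cdkn1a, the cell cycle inhibitor p21, went from 5.29 and 7.30 RPKM to 49.5 and 33.4 RPKM, a rise of 2.62 that did not pass without control replicate 1 (adjusted p = 0.102). The other 13 tested genes of the p53, TWEAK receptor and growth arrest list did not pass, and the list's median was 0.06. Its count of rises was 1 without control replicate 1 and 4 without 28 day replicate 2. Atf3, a stress-induced transcription factor, rose from 1.86 and 2.10 RPKM to 11.7 and 9.96 RPKM (log2 change 2.19, adjusted p = 0.00246). Chac1, a glutathione-degrading enzyme downstream of ATF4, fell from 3.63 and 3.37 RPKM to 0.814 and 1.26 RPKM. It was also lower at 28 than at 7 days by 1.39 on the log2 scale. Of 11 tested ATF4 and amino acid response genes, Atf3 was the 1 that rose and Chac1 the 1 that fell. The median of that list was 0.51, and 10 of its genes had a log2 change above 0. At an unadjusted p under 0.05, 6 were higher and 1 lower. Herpud1, a component of endoplasmic reticulum protein degradation, fell from 140 and 144 RPKM to 48.1 and 65.2 RPKM (log2 change -1.33, adjusted p = 0.00991), while 0 of the other 19 genes of its list passed. Neither Chac1 nor Herpud1 passed without control replicate 1 or without control replicate 2. Outside the lists, Slc41a3, of a family of magnesium transporters, rose from 4.84 and 8.87 RPKM to 34.3 and 35.5 RPKM. Syt12, a synaptotagmin, was at 0.410 and 0.621 RPKM in the controls, at 1.14 and 1.35 RPKM at 7 days and at 6.07 and 4.47 RPKM at 28 days, and it met the level limit through the infused libraries. It was higher than at 7 days by 1.71 (adjusted p = 0.00929).

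**Figure D3:**
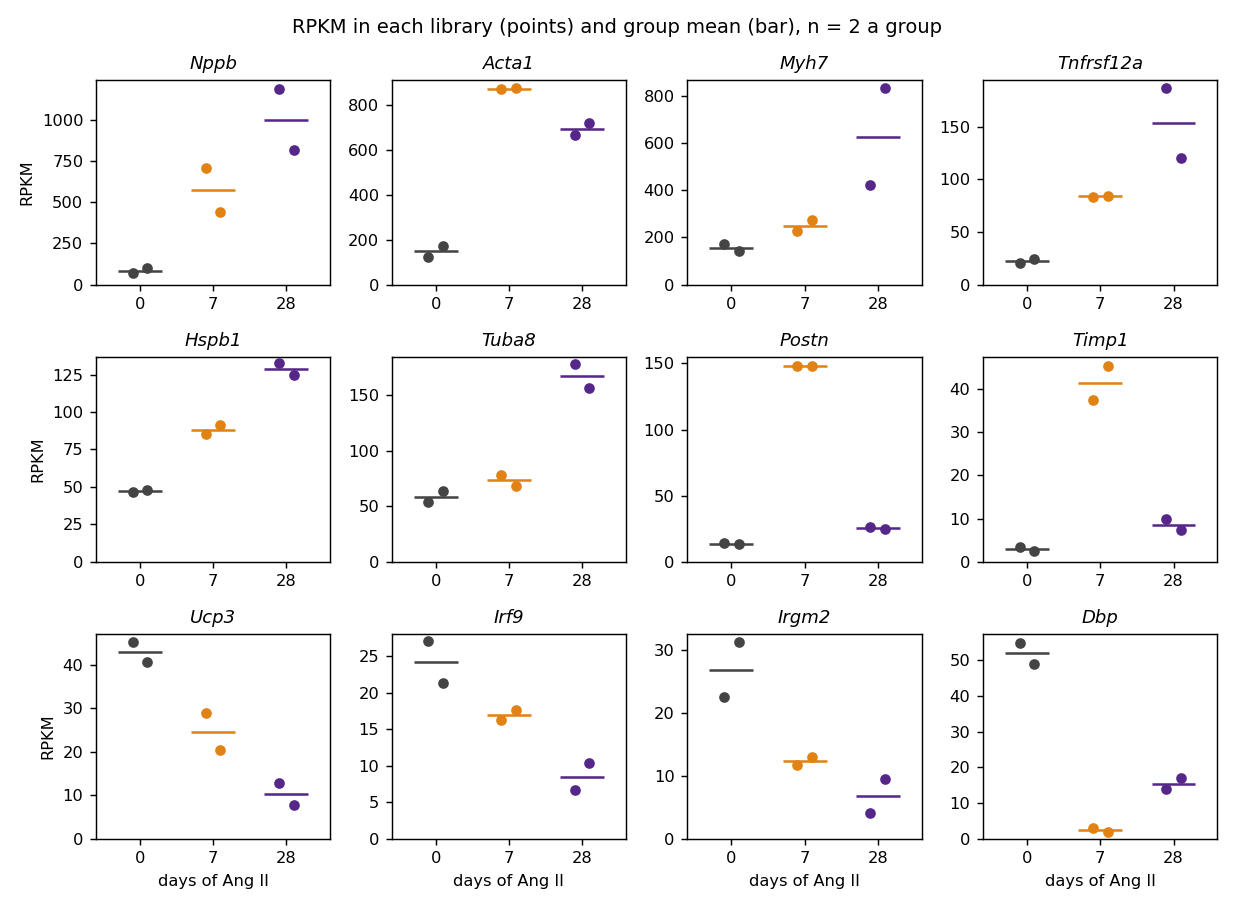
RPKM of 12 genes in each library (points) at 0, 7 and 28 days of Ang II, with group means as bars and axes from 0. Nppb, Myh7, Tnfrsf12a, Hspb1 and Tuba8 are highest at 28 days, Postn and Timp1 peak at 7 days, and Dbp is lowest at 7 days.

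Of 14 tested calcium cycling genes 2 rose, or 14.3% against 2.9% of all genes, and 0 fell, with a median of 0.22. Casq2, calsequestrin, which buffers calcium in the sarcoplasmic reticulum, rose from 319 and 348 RPKM to 553 and 496 RPKM (log2 change 0.65), and Jph2, junctophilin, which holds that membrane to the T tubule, rose by 0.47. Atp2a2, the calcium pump SERCA2, was at 1857 and 1982 RPKM in the controls and at 1773 and 1561 RPKM at 28 days (log2 change -0.21, SE 0.12, adjusted p = 0.343). Its inhibitor Pln was at 2427 and 2469 RPKM and then at 2030 and 2027 RPKM (log2 change -0.27, SE 0.11, adjusted p = 0.212). In both genes both 28 day libraries lay below both controls, as in 2850 of all 10949 genes.

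Among 23 tested channel and gap junction genes 4 fell, or 17.4% against 1.63% of all genes, all of them subunits of potassium channels. Kcnj2, the inward rectifier that sets the resting potential, fell from 10.8 and 9.99 RPKM to 4.09 and 4.16 RPKM (log2 change -1.23, SE 0.18, adjusted p = 0.0181). Kcnv2, a silent subunit of voltage-gated channels, fell from 2.78 and 2.82 RPKM to 1.15 in both libraries. Kcnip2, the accessory subunit of the transient outward current, fell from 60.7 and 67.2 RPKM to 37.8 and 43.1 RPKM, and Kcnj5, of the acetylcholine-gated current, fell by 0.57. Kcnk3, a leak channel, rose from 35.3 and 37.9 RPKM to 61.0 and 74.4 RPKM and was higher than at 7 days. Gja1, connexin 43 (log2 change 0.16), did not pass. Cardiac transcription factors gave 3 rises (16.7%) and 0 falls among 18 tested: Hand2 rose from 9.39 and 9.96 RPKM to 18.3 and 18.2 RPKM, Srf by 0.83 and Gata4 by 0.56. With either control library left out 0 genes of the calcium, channel and transcription factor lists passed, and the calcium list gave 0 rises without 28 day replicate 1 and 1 without either 7 day library.

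Among extracellular matrix genes, collagens mostly did not pass at 28 days while some matricellular genes were high. Of 18 tested collagen genes 1 rose, or 5.56% against 2.9% of all genes, and 0 fell, and 8 were higher at an unadjusted p under 0.05. It was Col4a2 of the basement membrane, at 29.2 and 33.4 RPKM in the controls and at 51.6 and 65.1 RPKM at 28 days, and it did not pass without either control library. Col1a1, the main chain of type I collagen, was at 9.9996 and 11.6 RPKM in the controls and at 14.98 and 21.4 RPKM at 28 days and did not pass (log2 change 0.71, SE 0.20, adjusted p = 0.103). Col3a1 was at 33.7 and 38.03 RPKM and then at 38.9 and 54.5 RPKM (log2 change 0.36, adjusted p = 0.264). The 18 genes had a median of 0.41, and 28 day replicate 2 stood higher than replicate 1, with medians of 0.58 and 0.24 against the control mean.

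Among matricellular and glycoprotein genes 8 of 31 tested rose and 1 fell, or 25.8% and 3.23% against 2.9% and 1.63% of all genes. The median was 0.45. Cilp, a cartilage protein made by cardiac fibroblasts, was at 1.64 and 1.63 RPKM in the controls and at 7.71 and 7.02 RPKM at 28 days (log2 change 1.88, SE 0.12, adjusted p = 0.00246). Thbs4, thrombospondin 4, was at 0.914 and 0.754 RPKM and then at 3.90 and 4.91 RPKM, so that it reached the level limit through the infused libraries. Postn, periostin, a protein of activated fibroblasts, rose from 14.2 and 13.3 RPKM to 26.6 and 24.9 RPKM (log2 change 0.88, adjusted p = 0.00709). Thbs1, an activator of latent TGF-beta, rose from 1.17 and 0.976 RPKM to 10.3 and 3.79 RPKM. Vcan, Bgn, Fbn1 and Mfap5 rose by 0.84 to 0.94, and Ogn, the proteoglycan osteoglycin, fell by 0.63. Ctgf, the matricellular factor CCN2, was at 21.6 and 42.9 RPKM in the controls and at 342 and 115 RPKM at 28 days and did not pass (log2 change 2.68, SE 0.65, adjusted p = 0.0653). It passed without 28 day replicate 2 (log2 change 3.47, adjusted p = 0.0436). Spp1, osteopontin, stayed under the level limit, at 0.347 and 0.114 RPKM in the controls and at 0.607 and 0.470 RPKM at 28 days. The list gave 2 rises without control replicate 1, 3 without control replicate 2 and 5 without either 7 day library.

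Matrix crosslinking and turnover gave 5 rises (18.5% against 2.9% of all genes) and 0 falls in 27 tested genes. Timp1, an inhibitor of matrix metalloproteinases, went from 3.42 and 2.59 RPKM to 9.80 and 7.34 RPKM (log2 change 1.37, adjusted p = 0.0135). Mmp14, a membrane-bound collagenase, rose from 2.78 and 2.74 RPKM to 7.25 and 6.65 RPKM, and Loxl1, which crosslinks elastin, from 5.16 and 6.69 RPKM to 12.2 and 14.8 RPKM. Adamts1, a versican-cleaving protease, was at 5.33 and 5.59 RPKM and then at 44.2 and 15.4 RPKM, with 28 day replicate 1 far above replicate 2. In the TGF-beta and myofibroblast list 5 of 23 genes rose (21.7%) and 0 fell. Tgfb2 rose from 1.15 and 0.941 RPKM to 4.01 and 2.97 RPKM, Tgfb1 by 0.65, Meox1, a homeobox factor of activated fibroblasts, by 1.25, and Fstl3, a binding protein of activin, from 0.839 and 1.24 RPKM to 7.72 and 5.33 RPKM. With control replicate 1 left out both lists gave 0 rises, with control replicate 2 left out 2 each, and the TGF-beta list gave 3 without either 7 day library.

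Against the 7 day libraries, 41 genes (0.374%) were higher at 28 days and 379 (3.46%) lower, in the same fit. The median of all tested genes was -0.12 here, and with median ratio scaling, which removes such a shift, 49 were higher and 175 lower, with quantile normalization 44 and 168. The genes lower than at 7 days took in 11 of 18 collagens, 17 of 31 matricellular genes and 12 of 27 crosslinking and turnover genes, with 11, 13 and 8 under median ratio scaling. Postn had been at 148 RPKM in both 7 day libraries, so its 28 day level lay lower by 2.50 on the log2 scale (adjusted p = 0.000215). Col3a1 had been at 205 and 235 RPKM and was lower at 28 days by 2.24 (adjusted p = 0.00261), and Col1a1, at 55.3 and 75.1 RPKM at 7 days, was lower by 1.82. Timp1 (-2.21), Thbs4 (-2.09), Cilp (-1.63) and Mmp14 (-1.19) were lower than at 7 days too, though still above control. Of 17 fibroblast markers 3 were above control at 28 days, Pi16, Mfap5 and S100a4, and 11 were below 7 days, several of them collagens of the list above. The markers summed to 1137 and 1177 RPKM in the controls, 1791 and 1824 RPKM at 7 days and 1281 and 1081 RPKM at 28 days, and their part in the collagen levels was not tested. The number of collagens below 7 days was 7 without 28 day replicate 1 or 7 day replicate 1 and 3 without 7 day replicate 2. The matricellular count was 11 and 5 and the crosslinking count 5 and 1 without 7 day replicates 1 and 2, and the fibroblast marker count 3 and 2.

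**Figure D4:**
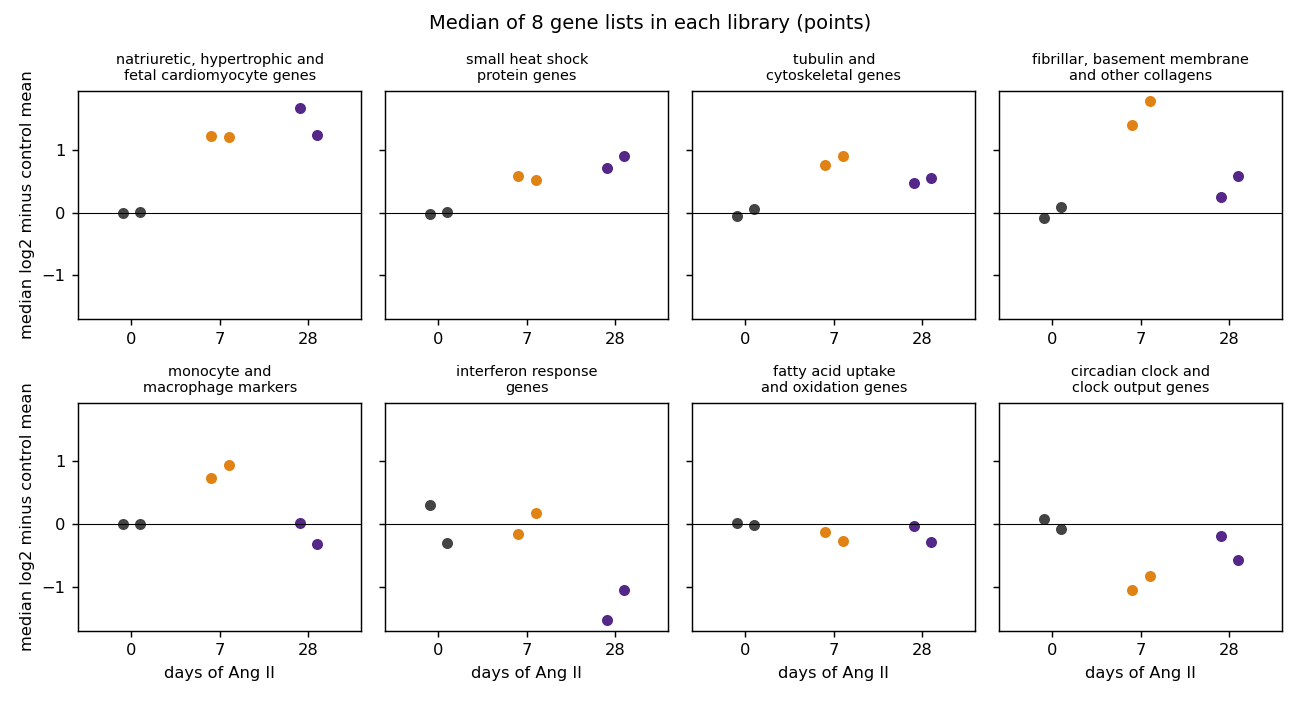
Median log2 difference from the control mean (vertical axis) of 8 lists in each library (points) at 0, 7 and 28 days of Ang II. Hypertrophic genes stay high at 28 days, collagens and macrophage markers return toward 0, and interferon genes are below the controls in both 28 day libraries.

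Interferon response genes had the lowest median of the pathway lists. They are induced by interferons through their receptors and encode antiviral and cell-autonomous defence proteins. Of 51 listed genes 48 were tested, 17 fell (35.4%) and 0 rose, with a median log2 change of -1.31. The background of these falls is the 1.63% that fell among all genes. In 41 of the 48 both 28 day libraries were below both controls, as in 2850 of all 10949 genes. Irf9, a transcription factor of the interferon response, was at 27.0 and 21.3 RPKM in the controls and at 6.64 and 10.4 RPKM at 28 days, a log2 change of -1.47 (adjusted p = 0.0164). Irf7, of the same family, was at 48.2 and 27.3 RPKM and then at 11.1 and 21.2 RPKM and did not pass (log2 change -1.22, adjusted p = 0.126). In both the first 28 day replicate was the lower one.

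Among the effectors, Iigp1, an immunity-related GTPase, went from 70.5 and 94.6 RPKM to 9.67 and 20.5 RPKM (log2 change -2.49, SE 0.31, adjusted p = 0.011), and Irgm2, of the same family, from 22.5 and 31.2 RPKM to 4.10 and 9.45 RPKM (-1.996). Ifit1, which binds foreign RNA, went from 32.8 and 14.2 RPKM to 2.66 and 6.88 RPKM (-2.20, adjusted p = 0.0469). The guanylate-binding proteins Gbp3 (-1.85) and Gbp4 (-1.79) and Rtp4 (-1.77), an interferon-induced chaperone of receptors, fell as well. So did Gbp5 (-1.84) and Ddx60 (-1.66), which are not on the list. Ddx60, with a mean of 3.89 RPKM in the controls and 0.851 RPKM at 28 days, met the level limit through the controls. Ifi27l2a fell from 120 and 96.3 RPKM to 51.5 and 49.0 RPKM. Isg15, a ubiquitin-like modifier, was at 33.4 and 14.2 RPKM and then at 5.42 and 8.27 RPKM and did not pass (log2 change -1.63, adjusted p = 0.0638). It passed without control replicate 2 (log2 change -2.24, adjusted p = 0.0401). Some genes of antigen processing on the same list did not follow: Psmb8 (log2 change -0.17), Tap2 (0.02) and Psmb10 (0.52) did not pass, and of 11 class I and 6 class II histocompatibility genes 0 passed in either direction in the limma test (at an unadjusted p under 0.05, 1 class I and 4 class II genes were higher and 1 and 0 lower). Under median ratio scaling 1 gene of the interferon list rose.

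The 2 controls differed in these genes. The list median against the control mean was 0.30 in control replicate 1 and -0.30 in control replicate 2, -0.16 and 0.17 at 7 days and -1.53 and -1.04 at 28 days. No 28 day library reached the lower control. The call count was less stable than this order: 0 of 48 passed without control replicate 1, where the median was -0.90, 8 without control replicate 2, 8 without 28 day replicate 1, 25 without 28 day replicate 2 and 5 without either 7 day library or with only the 2 groups compared. Against 7 days 15 of 48 were lower (as were 3.46% of all genes), 6 under median ratio scaling and 5 under quantile normalization. That count was 2 without 28 day replicate 1, 33 without 28 day replicate 2, and 2 and 1 without 7 day replicates 1 and 2. Monocyte and macrophage markers summed to 421 and 414 RPKM in the controls and to 354 and 298 RPKM at 28 days. Of 24 tested, 2 fell, or 8.33% against 1.63% of all genes, and 0 rose. Fcgr1 went from 2.41 and 1.95 RPKM to 0.942 and 0.904 RPKM, so it met the level limit through the controls alone. Tyrobp fell by 0.46. The part of monocytes and macrophages in the interferon genes was not tested.

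**Figure D5:**
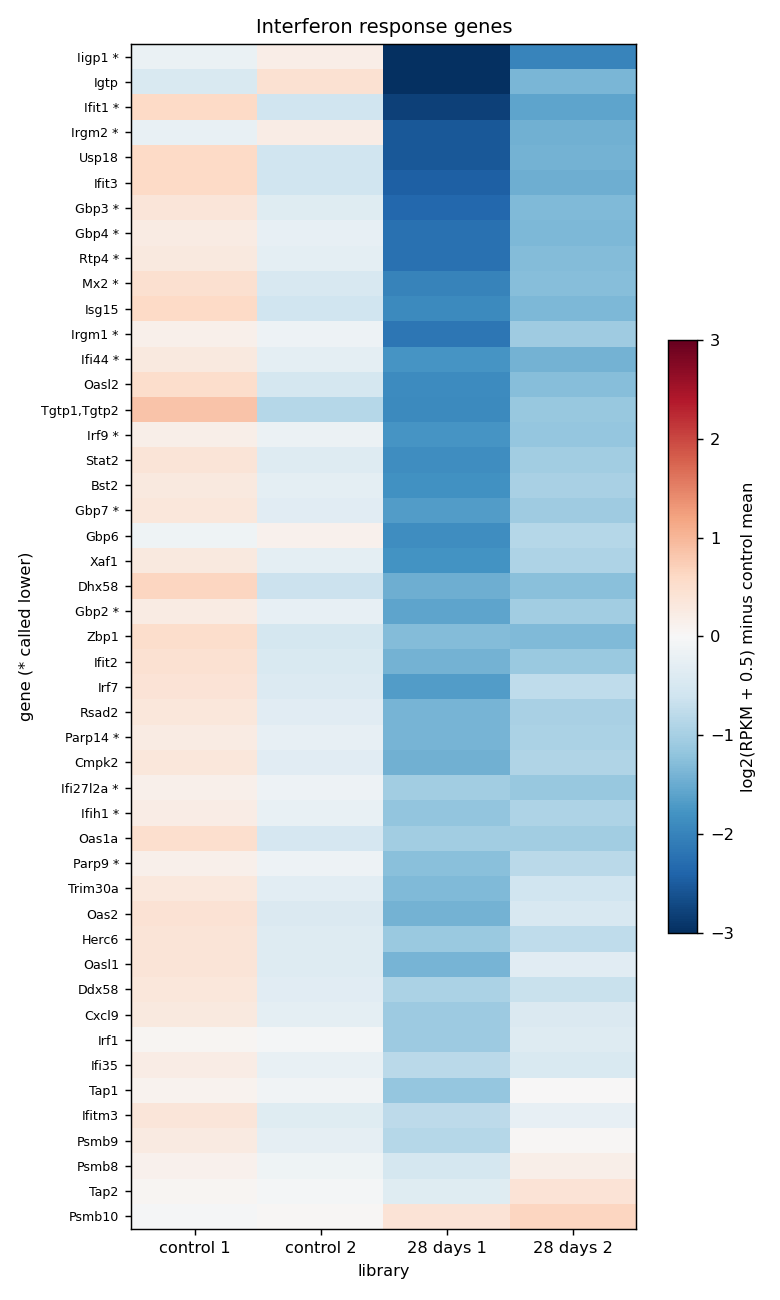
Log2(RPKM + 0.5) of 47 of the 48 interferon response genes minus the control mean in the 2 control and 2 28 day libraries, from blue (lower) to red (higher), with the scale ending at -3 and 3. Both 28 day libraries are blue for most genes, and in 41 of 48 both lie below both controls, while Psmb10 is above 0 in both 28 day libraries.

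The core of the interferon response element, GAAANNGAA on either strand, was present in the promoter windows of 20 of 34 tested interferon genes with a window (58.8%) and in 8.76% of the 7782 windows of tested genes. It was found in 8 of 9 windows of genes that fell and in 12 of 25 of those that did not pass. The stretches of 3 members are printed to show how the matches lie, in capitals and with overlapping matches run together, at chr19:34640750-34640825 (plus strand) for Ifit1, chr4:156200864-156200926 (minus strand) for Isg15 and chr11:58214883-58214933 (plus strand) for Irgm2. The Ifit1 and Isg15 stretches hold 3 matches each and the Irgm2 stretch 1.
Ifit1: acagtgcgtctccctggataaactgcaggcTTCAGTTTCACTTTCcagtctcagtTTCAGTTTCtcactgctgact
Isg15: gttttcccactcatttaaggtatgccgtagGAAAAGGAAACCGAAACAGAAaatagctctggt
Irgm2: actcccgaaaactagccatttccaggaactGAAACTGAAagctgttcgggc

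Among inflammatory genes at 28 days, S100a8 and S100a9, which form calprotectin, the main cytosolic protein of neutrophils, had the largest rises of all called genes. S100a9 was at 1.62 and 0 RPKM in the controls and at 15.1 and 64.4 RPKM at 28 days (log2 change 4.95, SE 0.79, adjusted p = 0.0226). S100a8 was at 0.328 and 0.960 RPKM and then at 15.5 and 51.8 RPKM (4.72, adjusted p = 0.0123), and Retnlg, a resistin-like protein of granulocytes, at 0 and 0.163 RPKM and then at 2.24 and 7.42 RPKM (3.02). All 3 met the level limit through the 28 day libraries, and in all 3 replicate 2 was the higher. Other neutrophil genes stayed under the limit: Csf3r was at 0.192 and 0.245 RPKM and then at 0.736 and 1.29 RPKM, Cxcr2 at 0.026 and 0.025 RPKM and then at 0.238 and 0.498 RPKM, Mmp8 at 0 in both controls and at 0.133 and 0.6999 RPKM, and Mpo and Elane were listed at 0 in all libraries. The granule genes did not share a direction. Camp was at 0 and 0.332 RPKM in the controls and at 0 in both 28 day libraries. Ngp was at 0 and 0.072 RPKM and then at 0.0765 and 0.169 RPKM, and Ltf at 0.0291 and 0 RPKM and then at 0.148 and 0.0327 RPKM. The markers of this cell type summed to 2.19 and 1.80 RPKM in the controls, 7.12 and 13.8 RPKM at 7 days and 34.2 and 126 RPKM at 28 days. S100a8, S100a9 and Retnlg are themselves on that list and made up most of its sum at 28 days. The sum is therefore no separate measure of these cells, and their part in the S100 genes was not tested. S100a8 did not pass without control replicate 1 (adjusted p = 0.0922), and S100a9 did not without control replicate 2 or either 7 day library (adjusted p up to 0.0711). Retnlg did not pass without either control (adjusted p = 0.175 and 0.0781).

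Of 21 tested chemokine, cytokine and adhesion genes 4 rose (19%) and 0 fell, and in 9 both 28 day libraries were above both controls, as in 3156 of all 10949 genes. Ccl8, a monocyte-attracting chemokine, was at 1.51 and 1.67 RPKM in the controls and at 11.8 and 9.75 RPKM at 28 days (log2 change 2.43, adjusted p = 0.00404), below its 34.7 and 56.0 RPKM at 7 days. Ccl5, which met the level limit through the infused libraries, rose from 0.408 and 0.592 RPKM to 1.67 and 2.30 RPKM. Cxcl14 rose by 0.91 and Icam1, the leukocyte adhesion molecule, by 0.83. Ccl2 was at 1.52 and 2.80 RPKM in the controls and at 3.09 and 2.63 RPKM at 28 days, so the groups overlapped, and it was lower than at 7 days by 1.397 (adjusted p = 0.0403). Cd68, a lysosomal protein of macrophages, was at 6.54 and 5.11 RPKM and then at 5.51 and 5.45 RPKM. Of 24 macrophage markers 14 were lower than at 7 days, against 3.46% of all genes. That count was 7 and 3 without 7 day replicates 1 and 2. In the complement and acute phase list 2 of 19 rose (10.5%) and in 11 both 28 day libraries were above both controls. The risers were Serpina3n from 3.71 and 3.48 RPKM to 15.3 and 12.2 RPKM and C4b from 2.90 and 2.92 RPKM to 7.12 and 6.22 RPKM. Cell cycle genes were low: 10 of 36 were tested and 0 passed with limma (at an unadjusted p under 0.05, 2 were higher and 2 lower), and Mki67, a marker of dividing cells, was at 0.341 and 0.281 RPKM in the controls, 1.81 and 3.33 RPKM at 7 days and 0.192 and 0.310 RPKM at 28 days. With either control left out 1 gene of the chemokine list passed and 0 of the complement list, which gave 4 rises without 28 day replicate 2.

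Of 18 tested genes of the circadian clock and its output 8 fell and 2 rose, or 44.4% and 11.1% against 1.63% and 2.9% of all genes. The clock turns on a pair of activators, of which Arntl encodes BMAL1, and on repressors of the Per, Cry and Rev-erb families, which peak at another time of day. Arntl was at 0.191 and 0.861 RPKM in the controls and at 4.36 and 4.58 RPKM at 28 days, a log2 change of 2.36 (SE 0.28, adjusted p = 0.00949), and it met the level limit through the infused libraries. Npas2, a partner of BMAL1, stayed under the limit at 0.449 and 0.463 RPKM and then at 1.47 and 1.28 RPKM. The other gene that rose was the repressor Nfil3 (0.83). Dbp, an activator of clock output, was at 54.7 and 49.0 RPKM in the controls and at 13.9 and 17.0 RPKM at 28 days (log2 change -1.72, SE 0.20, adjusted p = 0.00864). Its relatives Tef and Hlf fell by 1.13 and 1.54. Per3 fell from 12.4 and 8.72 RPKM to 2.42 and 3.25 RPKM, Per2 from 7.45 and 6.02 RPKM to 2.76 and 3.05 RPKM, Nr1d2 by 1.28 and Cry2 by 0.80. Ciart, a repressor of BMAL1 listed as Gm129, fell from 7.18 and 6.10 RPKM to 2.04 and 1.71 RPKM. Nr1d1 (log2 change 0.24), Clock (0.55) and Cry1 (-0.15) did not pass.

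At 7 days the same output genes had been further from control. Dbp was at 2.92 and 1.79 RPKM then and was higher at 28 than at 7 days by 2.51 (adjusted p = 0.00282). Per2 was higher than at 7 days by 1.91, Per3 by 1.27 and Gm129 by 0.91. In this comparison 6 of the 18 genes were higher and 0 lower, against 0.374% and 3.46% of all genes. The labels give no time of day, so the hour of collection and the infusion cannot be told apart in these genes. The number of clock genes that fell was 1 without control replicate 1 and 6 or 7 without any other single library. The number above 7 days was 3 and 2 without 7 day replicates 1 and 2.

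Among 15 clock genes with a promoter window, 5 held the E-box CACGTG, the site of CLOCK and BMAL1, against 12.1% of windows of tested genes, and 2 held TTATGNAA, which covers the D-box bound by DBP, TEF, HLF and NFIL3, against 2.47%. The E-box was in 2 of 7 windows of genes that fell, 0 of 2 of genes that rose and 3 of 6 of those that did not pass, and the D-box in 1 of 7, 0 of 2 and 1 of 6. The E-box is its own reverse complement, and the D-box was read on both strands. The 2 stretches below, from genes that fell, hold 3 E-boxes in Ciart (chr3:95882255-95882374, minus strand) and 2 D-boxes in Per3 (chr4:151044804-151044900, minus strand), in capitals.
Ciart: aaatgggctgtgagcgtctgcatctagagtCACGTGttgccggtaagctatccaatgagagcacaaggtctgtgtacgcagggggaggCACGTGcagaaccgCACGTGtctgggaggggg
Per3: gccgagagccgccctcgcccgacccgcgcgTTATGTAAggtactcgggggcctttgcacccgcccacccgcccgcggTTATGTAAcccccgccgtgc

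Few genes of energy metabolism passed the test. Of 35 fatty acid uptake and oxidation genes, 23 of the tricarboxylic acid cycle and 36 of respiratory complex I, 0 passed in either direction with limma, and the medians were -0.19, -0.01 and 0.02. At an unadjusted p under 0.05, 2, 3 and 5 genes were higher and 8, 1 and 1 lower. Under quantile normalization 1 gene of each list fell. Cpt1b, which carries fatty acids into mitochondria, was at 166 and 171 RPKM in the controls and at 207 and 245 RPKM at 28 days (log2 change 0.42, adjusted p = 0.0816), and Ppargc1a, the coactivator of mitochondrial genes, at 18.1 and 18.9 RPKM and then at 19.1 and 14.8 RPKM. Of 38 genes of complexes III to V 1 rose, Cox6a1, by 0.56, or 2.63% against 2.9% of all genes. Ucp3, a mitochondrial carrier of muscle that follows fatty acid supply, was the exception: it was at 45.2 and 40.6 RPKM in the controls, at 28.9 and 20.4 RPKM at 7 days and at 12.8 and 7.72 RPKM at 28 days. It fell by 2.05 on the log2 scale against control (SE 0.25, adjusted p = 0.00949) and was lower than at 7 days by 1.24 (adjusted p = 0.0414).

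Pdp2, a phosphatase that activates pyruvate dehydrogenase, fell from 4.25 and 4.72 RPKM to 2.63 and 2.33 RPKM (log2 change -0.74, adjusted p = 0.031). Of the 10 genes on the list of uncoupling proteins and pyruvate dehydrogenase kinases and phosphatases, 3 fell and 0 rose. That count was 0 without control replicate 1, 2 without control replicate 2 and 5 without 28 day replicate 1. Ucp3 did not pass without control replicate 1 (adjusted p = 0.0778). Pdk4, which inhibits the same enzyme complex, was at 211 and 244 RPKM and then at 299 and 98.0 RPKM, so the 28 day libraries lay on both sides of the controls. It passed without 28 day replicate 1 with a log2 change of -1.21 (adjusted p = 0.0121). In glycolysis 2 of 22 genes rose, or 9.09% against 2.9% of all genes, and 0 fell. The risers were Hk1, hexokinase 1, by 0.63 and Pgam1, phosphoglycerate mutase, by 0.79. In branched-chain amino acid catabolism 2 of 17 fell, or 11.8% against 1.63% of all genes. Ppm1k, the phosphatase that activates the branched-chain dehydrogenase, went from 16.7 and 17.7 RPKM to 9.91 and 10.6 RPKM. Dbt, a subunit of that complex, went from 24.4 and 23.4 RPKM to 16.0 and 14.6 RPKM. With either control library left out 0 genes of the glycolysis and branched-chain lists passed, and without 28 day replicate 2 the counts were 0 and 1.

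The list of muscle atrophy, autophagy and FOXO genes gave 1 fall and 2 rises in 19 tested genes, or 5.26% and 10.5% against 1.63% and 2.9% of all genes. Fbxo32, the ubiquitin ligase atrogin-1, fell from 24.9 and 25.5 RPKM to 12.4 and 9.75 RPKM (log2 change -1.16, adjusted p = 0.00709). Murc, also called cavin-4, rose from 37.7 and 39.2 RPKM to 101 and 78.1 RPKM, and Trim54, a ring-finger protein of the sarcomere, by 0.59. Murc is counted on this list but is a caveolar protein of muscle, so its rise is not one of protein turnover. Within the renin-angiotensin and endothelin list 2 of 12 tested genes rose (16.7%). Agt, the angiotensin precursor, rose from 1.48 and 1.45 RPKM to 3.41 and 3.68 RPKM (log2 change 1.04, SE 0.13, adjusted p = 0.011). Edn3, an endothelin, met the level limit through the infused libraries, at 0.161 and 0.281 RPKM and then at 1.55 and 2.44 RPKM. Agtr1a, the main Ang II receptor of the mouse, was at 10.1 and 9.22 RPKM and then at 11.3 and 14.4 RPKM and did not pass (log2 change 0.39, adjusted p = 0.244). Ace, the converting enzyme, was at 10.7 and 9.60 RPKM and then at 12.02 and 11.9 RPKM (log2 change 0.23, adjusted p = 0.364), below its 20.4 and 25.9 RPKM at 7 days. None of the Fbxo32, Murc, Trim54, Agt and Edn3 calls held without control replicate 1 or without control replicate 2.

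The remaining lists are set beside the 2.9% of all genes that rose and the 1.63% that fell. Of 17 adrenergic receptor and G protein regulator genes, 37 proteasome subunits and 23 aminoacyl-tRNA synthetases 0 passed with limma (at an unadjusted p under 0.05, 5, 4 and 4 were higher and 3, 0 and 0 lower). Of 77 cytosolic ribosomal protein genes 5 rose (6.49%) and 0 fell, with Rplp2, a protein of the ribosomal stalk, highest at 5.55 and 3.54 RPKM in the controls and 10.3 and 12.8 RPKM at 28 days, and of 76 mitochondrial ribosomal genes 1 rose (1.32%). Of 25 redox genes 1 fell (4.0%), Gsta3, a glutathione transferase, by 0.96. Immediate early genes gave 2 rises of 21 (9.52%), Jund by 0.80 and Klf4 by 0.82, and glucocorticoid-responsive genes and metallothioneins 2 of 15 (13.3%), Sgk1, a kinase of salt handling, by 1.05 and Errfi1, an inhibitor of the EGF receptor, by 1.26. Of 18 angiogenic genes 1 rose (5.56%), Kdr, the VEGF receptor of endothelium, from 16.7 and 18.8 RPKM to 27.8 and 29.5 RPKM. Endothelial markers as a whole summed to 1476 and 1314 RPKM in the controls and to 1313 and 1375 RPKM at 28 days, and 1 of 15 tested was called. Of 13 tested smooth muscle and pericyte markers 1 was called, Des, which is also a cardiomyocyte gene. Without Des the markers of that list summed to 278.5 and 290.2 RPKM in the controls and to 264 and 294 RPKM at 28 days. With either control library left out 0 genes of the ribosomal, redox, immediate early, glucocorticoid and angiogenic lists passed. The ribosomal and immediate early counts were also 0 without either 7 day library, the ribosomal count 0 and the immediate early count 4 without 28 day replicate 2, and the glucocorticoid list gave 0 rises without 28 day replicate 1 and 1 without 28 day replicate 2.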

How the data were processed

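RNA of 6 mouse heart libraries, 2 per group, was sequenced. The values analysed are the RPKM per gene that the authors deposited in 1 table, with 22556 gene symbols and no counts. Per the submitters' processing notes, mm8 and mm9 were the builds and DESeq2, HTSeq, Bowtie 0.12.9 and TopHat2 2.0.12 the tools, with no role given, and whether counting used strand is not given in the sources used here. Libraries were grouped by their labels.

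The test took genes whose RPKM averaged at least 1 over the control and 28 day libraries. Of these, 157 averaged under 1 in the controls and at least 1 at 28 days, and 182 the reverse. limma 3.58.1 (R 4.3.3) was run on log2(RPKM + 0.5) with group means over all 6 libraries and a variance trend (3 residual and 4.25 prior degrees of freedom), and Benjamini-Hochberg adjusted p under 0.05 was called. Log2 changes are on this scale, which understates the change of low genes. With 2 against 2 libraries no exact permutation test of 1 gene can reach 0.05, so none is given. The fit was also run on simulated data, with independent normal noise at each gene's fitted variance. That noise held no shift shared by the genes of a library, so the run cannot show how calls depend on single libraries. Absolute depth is unknown: relative depth came from the steps between low values.

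Described genes were the 15 highest and 15 lowest called genes with libraries that did not overlap (predicted genes, immune receptor segments, short RNAs and damaged symbols left out), up to 4 called members of each list or the 2 with the largest change where none was called, and 30 genes always taken. Members named beyond these were chosen after their values were seen. Genes and lists were chosen with earlier results of these data known. Of the tested genes 815 had predicted names (35 called), 18 had symbols turned into dates, 19 carried merged symbols and 13 were short RNAs. Promoter windows came from RefSeq (GRCm38.p6) and were matched by symbol. A few genes of the lists are counted but not reported here by name. Figures were drawn with matplotlib 3.10.9. Alternatives are listed in the closing section.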

Additional observations from a re-analysis of the deposited data

Results flagged for a closer look

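The following described genes differed between 28 and 7 days of Ang II in the same limma fit (adjusted p under 0.05), so that their change from control was not of the same size at both times. Values are log2 changes, 28 minus 7 days.

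Lower at 28 days were genes of matrix and fibroblasts: Postn (-2.50), Col3a1 (-2.24), Timp1 (-2.21), Thbs4 (-2.09), Col1a1 (-1.82), Cilp (-1.63), Mmp14 (-1.19) and Meox1 (-1.12). The inflammatory genes Serpina3n (-2.06), Ccl8 (-1.99), Ccl2 (-1.40) and Cd68 (-1.15) and the interferon-inducible Isg15 (-2.12), Rtp4 (-1.90) and Gbp3 (-1.77) were lower too. So were Chac1 (-1.39), Ucp3 (-1.24), Ace (-0.92) and the cyclin gene Ccnd1 (-0.78).

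Higher at 28 days were S100a8 (3.06), the clock genes Dbp (2.51), Per2 (1.91), Per3 (1.27) and Gm129 (0.91), and Syt12 (1.71). The rest were Tuba8 (1.19), Idh2 (0.71), Tubb2c (0.62), Kcnk3 (0.62), Hand2 (0.55), Hspb1 (0.54) and Trim54 (0.53). In total 13 genes were higher and 19 lower.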

How the results depend on the processing

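Of 317 genes higher and 178 lower than control, 59 and 19 were called with no filter on low values, 183 and 81 with only the 2 groups compared, 23 to 310 and 13 to 166 with 1 library left out, 118 lower with a replicate block and 325 lower at an unadjusted p under 0.05 with a change above 1.5-fold. Against 7 days (41 higher, 379 lower) these were 22 and 200 with only the 2 groups compared, 26 higher with the replicate block, 103 and 663 at the unadjusted p, 6 to 98 and 17 to 548 with 1 library left out, and 192 lower at a mean RPKM of at least 5, 175 with median ratio scaling and 168 with quantile normalization. Other pseudocounts, a limit over all 6 libraries and a fit without variance trend kept every one of these 4 counts within 1.5 times. The labels do not say whether replicate numbers pair the samples. The deviations of replicate 1 correlated at 0.193 (control and 7 days), -0.026 (control and 28 days) and -0.0249 (7 and 28 days). With 2 libraries a group these values cannot settle whether samples were paired. With the block 253 genes were higher. No described gene that was called changed direction under any setting, and 13 of 98 stayed called under all of them. Of 56 list medians, 12 changed sign without 28 day replicate 2, 6 without replicate 1, 4 and 5 without control replicates 1 and 2, and 6 under quantile normalization. The cause of these differences was not tested. Counts against control fell furthest without a control library, and counts against 7 days without 7 day replicate 2.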
